A study of Caenorhabditis elegans with 4 samples.

Results

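The transcription factor genes that direct epidermal fate in C. elegans, elt-1, elt-3, egl-18, elt-6, lin-26 and nhr-25, were followed in RNA from early embryos. They were taken by name, and all 6 were found among the 20040 genes of the array. RNA came from early embryos of the wild-type strain N2, which carries no added allele and received no treatment, in 4 samples that form 1 group (replicates 1 to 4). Each sample came from a separate embryo preparation, released by bleaching from gravid adults grown in liquid culture and frozen. By the paper's methods such preparations mixed embryos of several stages. The mix is given there as an average over preparations and not for each sample. Labelled RNA was hybridized to single-color NimbleGen arrays with 3 probes for each of the 8 transcripts of these genes. The values are intensities that the authors quantile normalized and summarized by RMA (Robust Multichip Average), and are given here as log2 of the intensity, with transcripts of one gene averaged. With 1 group there was no contrast between conditions, and whole embryos were measured, so fewer cells of a type and less RNA per cell cannot be told apart.

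The epidermis of the worm is the outer cell layer that shapes the embryo and secretes the cuticle, and it arises mainly from descendants of the AB and C blastomeres. ELT-1, a GATA-type zinc finger protein, is the factor without which these descendants fail to become epidermal. It acts above LIN-26, a zinc finger protein that maintains epidermal identity, and above ELT-3, a further GATA factor of the main body epidermis. EGL-18 and ELT-6 are closely related GATA factors that act redundantly in the seam cells, the lateral epidermal cells, and their genes lie side by side on chromosome IV. NHR-25, a nuclear receptor of the FTZ-F1 family, acts in embryonic epidermis and in moulting. The genes of elt-3 and nhr-25 are on the X chromosome, elt-1 is on IV and lin-26 on II (RefSeq table of assembly WBcel235).

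The 4 arrays were similar, with Pearson's correlations across genes of 0.968 to 0.992 between pairs of samples. The lowest of these belonged to the pairs with replicate 4, which reached at most 0.973. No background or detection call was used, since none is defined in the tables, and a reference level was therefore set within each sample: the 97.5th percentile of 1343 genes for serpentine receptors, proteins that sense chemicals in differentiated neurons. This level was 8.47, 8.59, 8.70 and 8.70 (log2) in replicates 1 to 4. The median of the same receptor genes was 4.74, 4.74, 4.81 and 5.41, so their low values were higher in replicate 4. Each gene's distance from the level was tested by limma in a single fit over all genes, with Benjamini-Hochberg adjustment and a threshold of 0.05. Such p-values measure only the spread between these 4 samples. By this test 42.1% of all genes were above the level and 51.6% below it. Counting the genes whose value was on one side in each of the 4 samples gave 42% above and 51.5% below.

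All 6 epidermal fate genes were above the serpentine receptor level in each of the 4 samples and passed the test, where 42.1% of all genes passed the test and 42% were above it in each sample. Their median log2 value was 13.03, against 7.82 for all genes of the array. The highest gene averages belonged to lin-26 and egl-18 and the lowest to elt-1, whose average hides a pair of very different transcripts. Intensities of different genes also carry the affinity of their probes, which limits every comparison of levels between genes.

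The transcripts of elt-1 differed widely, and this is the gene at the top of the epidermal pathway. Transcript b of elt-1 (W09C2.1b) had intensities of 26920, 30388, 22665 and 30374 in replicates 1 to 4. Transcript a (W09C2.1a) had intensities of 118, 128, 169 and 79.2 in the same samples. The ranges did not overlap: in log2 units transcript b averaged 14.74 ± 0.20 and transcript a 6.90 ± 0.45 (SD, n = 4 each). The probes of transcript b were above the serpentine receptor level in 4 of 4 samples and those of transcript a in 0 of 4. As the signal of transcript a did not rise above the level, it gives only a bound. Set against the level in place of transcript a, transcript b was 69.8-fold higher by the mean log2 difference, from 54.6-fold to 78.8-fold in single samples. Transcript b was higher than transcript a in 4 of 4 samples. For transcript b minus transcript a, the exact sign-flip permutation test (two-sided) gave p = 0.125, the smallest that 4 samples allow. Where the probes lie in the gene is not given in the files, so whether the difference reflects 2 RNAs or the response of the probes was not tested. The average of both transcripts, which takes in the signal below the level, was 10.82 ± 0.16 and lay 2.20 ± 0.15 (SE) above the level (limma, adjusted p = 6.87e-06), at percentile 66.1 of all genes. When the higher transcript stood for the gene, elt-1 was at percentile 97.7 and had the highest value of the 6 genes, 0.30 above lin-26, with differences of 0.21 to 0.40 in the 4 samples.

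**Figure D1:**
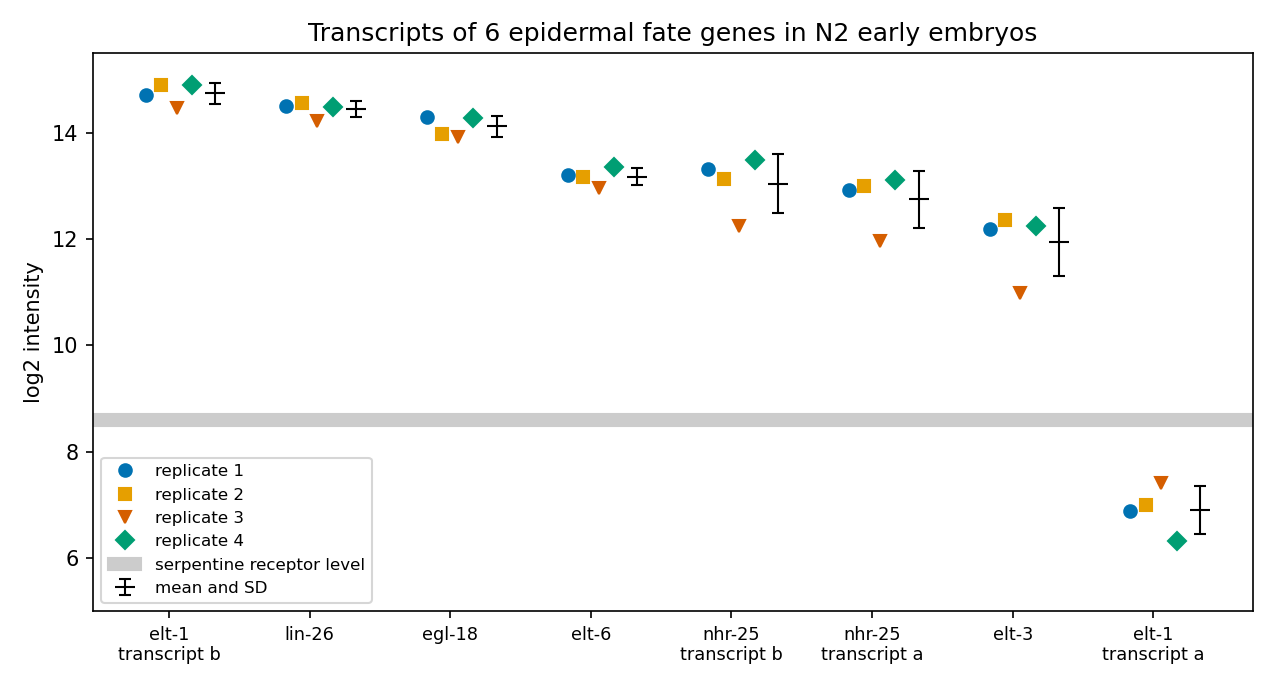
Log2 intensity (vertical axis) of each of the 8 transcripts of the epidermal fate genes in the 4 early embryo samples (symbols), with the mean and SD to the right of each and the range of the serpentine receptor level over the samples as a grey band. Transcript b of elt-1 is the highest at 14.74, transcript a of elt-1 is the only one under the band at 6.90, and replicate 3 is the lowest sample for every transcript except transcript a of elt-1.

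For lin-26, the zinc finger gene of epidermal identity, the log2 values were 14.51, 14.56, 14.22 and 14.49 in replicates 1 to 4. The samples lay close together, with replicate 3 lowest, and averaged 5.83 ± 0.15 (SE) above the serpentine receptor level (limma, adjusted p = 1.54e-07). The gene was at percentile 96.1, between 94.1 and 96.9 in single samples. On chromosome II, lin-26 is annotated next to lir-1 and overlaps it, and lir-1 and lir-2 encode zinc finger proteins related to LIN-26. The lir-1 gene had log2 values of 14.21, 14.23, 14.67 and 14.31, highest in replicate 3, where lin-26 was lowest. The difference lin-26 minus lir-1 was 0.09 ± 0.36 (SD, n = 4) and so within the spread of the samples. Their annotations overlap, and whether the probes lie in the shared stretch is not given in the files. The gene on the other side, F18A1.1, averaged 5.52 ± 0.52 and was below the level in all 4 samples. The relatives lir-2 and lir-3 averaged 13.18 ± 0.16 and 11.86 ± 0.24, and all 3 lir genes were above the level.

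The seam GATA genes egl-18 and elt-6 had log2 values of 14.12 ± 0.20 and 13.17 ± 0.16 (SD, n = 4). For egl-18 the samples gave 14.30, 13.98, 13.92 and 14.27, with replicates 1 and 4 above the other two. For elt-6 they gave 13.21, 13.17, 12.96 and 13.35, highest in replicate 4 and lowest in replicate 3. Both were above the serpentine receptor level, by 5.50 ± 0.16 for egl-18 and by 4.56 ± 0.15 for elt-6 (SE; limma, adjusted p = 1.66e-07 and 2.38e-07). The value of egl-18 exceeded that of elt-6 by 0.81 to 1.10 in every sample, a mean of 0.95 ± 0.12 (SD), which corresponds to 1.93-fold. The difference was steady across samples. Its SD compares with 0.11 for lin-26 minus elt-6 and with 0.17 to 0.72 for the other pairs of the 6 genes. Whether the shared position of egl-18 and elt-6 plays a part was not tested. Probes for related GATA genes may detect each other's RNA, which was not tested. The outer neighbours of the pair were egl-4, a protein kinase gene, at 12.99 ± 0.24, and denn-4, at 9.11 ± 0.48, which was above the level in 3 of 4 samples and did not pass the test (limma, adjusted p = 0.0859). Among the gene classes that the study compiled, egl-18 is on the list of ubiquitous genes, of which only a part was used here. None of the 6 genes is on the germline-specific or soma-specific list. Membership in the study's germline-expressed and embryo-expressed classes was not looked up, so the genes may belong to those. By the paper's definition, ubiquitous genes such as egl-18 have transcripts in the adult germ line as well as in muscle, gut and neurons.

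The X-linked genes nhr-25 and elt-3 were high as well but varied more between samples. For nhr-25, which encodes the nuclear receptor, the log2 values were 13.11, 13.07, 12.10 and 13.30 in replicates 1 to 4, with replicate 3 far below the others. Both of its transcripts shared this pattern, with intensities of 7723, 8204, 3980 and 8895 for transcript a and of 10159, 9003, 4835 and 11436 for transcript b. Transcript b was higher than transcript a in every sample, by 0.29 ± 0.12 (SD, n = 4), or 1.23-fold. For elt-3, the GATA gene of the main epidermis, the intensities were 4641, 5233, 2037 and 4869, or 12.18, 12.35, 10.99 and 12.25 on the log2 scale, and again replicate 3 stood alone at the bottom. The gene averages were 12.90 ± 0.54 for nhr-25 and 11.94 ± 0.64 for elt-3 (SD, n = 4). They lay 4.28 ± 0.24 and 3.33 ± 0.27 (SE) above the serpentine receptor level (limma, adjusted p = 2.82e-06 and 2.00e-05), and even replicate 3 was above it for both. In single samples the percentile ranged from 73.5 to 84.8 for nhr-25 and from 66.8 to 75.8 for elt-3.

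**Figure D2:**
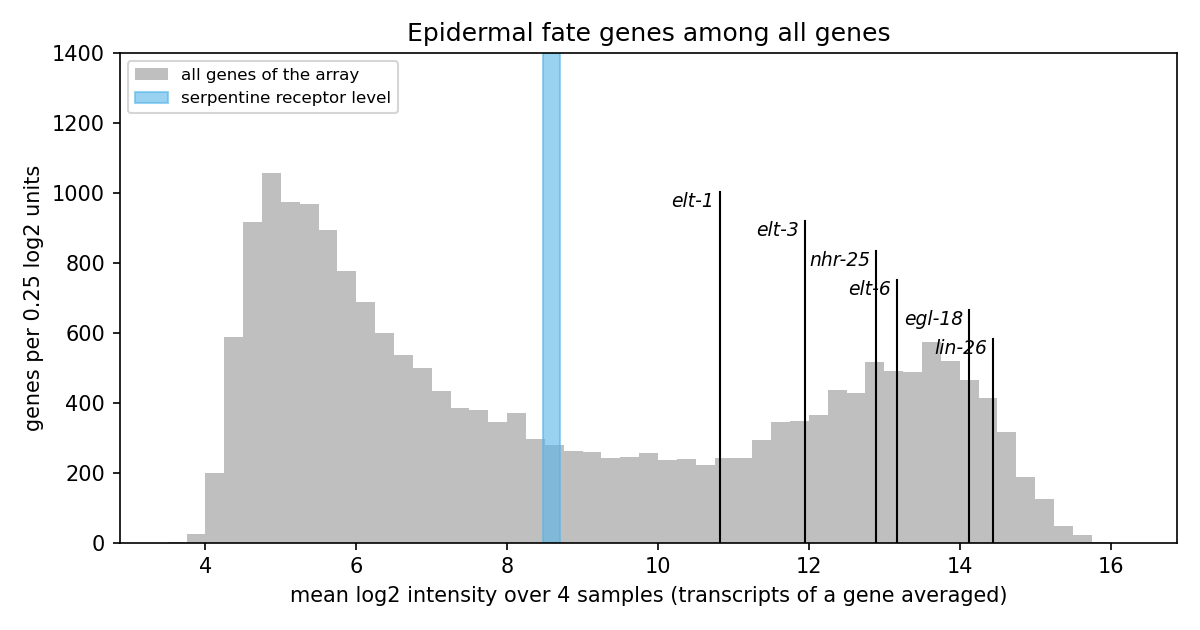
Number of genes per 0.25 log2 units (vertical axis) against the mean log2 intensity over the 4 samples (horizontal axis) for all 20040 genes, with the serpentine receptor level as a blue band and a line at the mean of each epidermal fate gene. All 6 lines stand to the right of the band, from elt-1 at 10.82 (average of its transcripts) to lin-26 at 14.45.

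Ordered by gene average, the levels fell along lin-26, egl-18, elt-6, nhr-25, elt-3 and elt-1, and in each of the 15 pairs the first gene was higher in all 4 samples. This held for averaged transcripts: with the highest transcript of each gene, all 5 pairs with elt-1 turned round, and elt-6 exceeded nhr-25 in 2 of 4 samples, by 0.13 ± 0.40 (SD; exact sign-flip permutation test, two-sided, p = 0.875). With 4 paired values, the exact sign-flip permutation test (two-sided) cannot go below 0.125, and it gave p = 0.125 for each pair, adjusted p = 0.125 over the 15 pairs. Neighbours in this order differed to unequal degrees. The difference elt-6 minus nhr-25 was 0.28 ± 0.39 (SD, n = 4) and did not exceed its own spread, with values from 0.05 to 0.86 and a mean of 0.08 without replicate 3. For lin-26 minus egl-18 the difference was 0.32 ± 0.18, for nhr-25 minus elt-3 it was 0.95 ± 0.17, and both were beyond the SD. For elt-3 minus elt-1 it was 1.12 ± 0.72, but only 0.06 in replicate 3, and without that sample it was 1.48. It was -2.80 when the higher transcript of elt-1 was taken.

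Replicate 3 stood apart from the other samples for elt-3 and nhr-25. It was lower than the mean of replicates 1, 2 and 4 for 5 of the 6 genes, where 46.9% of all genes were lower. The departure was -1.27 on the log2 scale for elt-3, which was 2.41-fold lower in replicate 3, and -1.06 for nhr-25, which was 2.09-fold lower. For lin-26, elt-6 and egl-18 the deviations were smaller, at -0.30, -0.29 and -0.26, and 36, 41 and 33 of the 200 genes nearest in level were lower still. The average of elt-1 was 0.15 higher in replicate 3, because its transcripts went opposite ways: transcript b deviated by -0.36 and transcript a, below the level in every sample, by 0.67. Genes of like level did not share the shift. The 200 genes nearest to elt-3 in mean level had a median deviation of 0.18 in replicate 3, and 2 of them were lower than elt-3. Of the 200 genes nearest to nhr-25, with a median of 0.14, 3 were lower than nhr-25. The SD of each of these genes over the samples was larger than that of 196 of its 200 nearest genes, against 109 for lin-26, 138 for egl-18, 81 for elt-6 and 34 for elt-1.

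**Figure D3:**
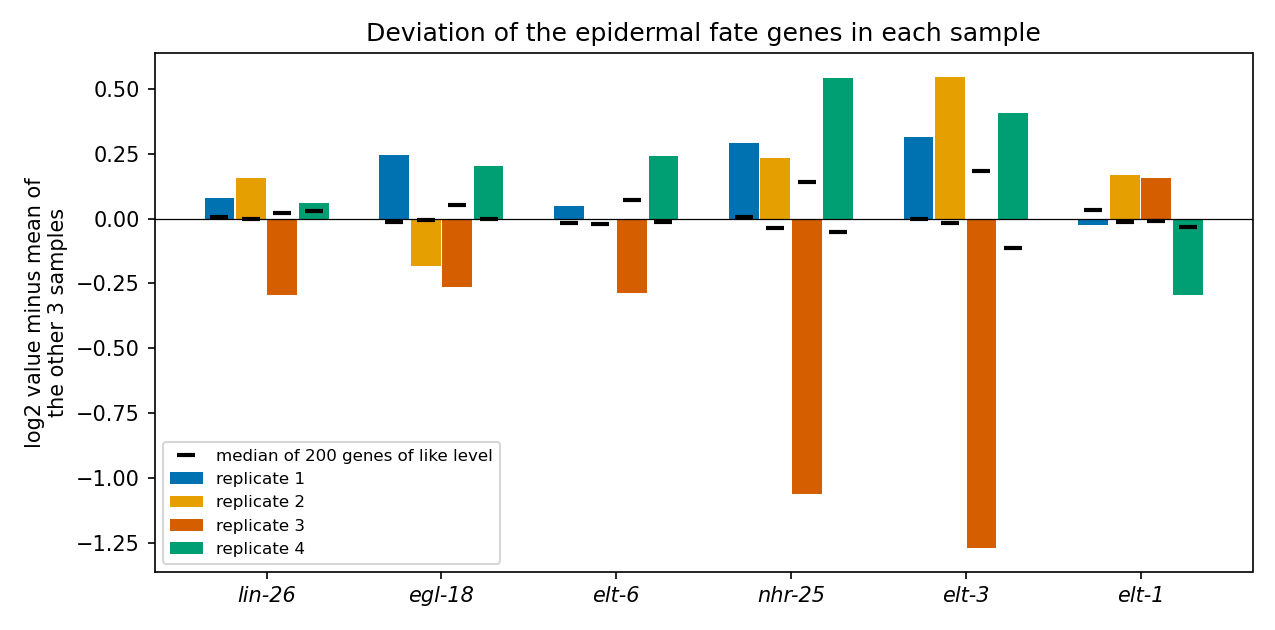
Log2 value in each sample minus the mean of the other 3 samples (vertical axis) for the gene averages of the epidermal fate genes, with a black dash for the median of the 200 genes nearest in level. The bars of replicate 3 reach -1.06 for nhr-25 and -1.27 for elt-3, while those of lin-26, egl-18 and elt-6 lie between -0.30 and -0.26 and that of elt-1 is at 0.15.

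Other genes moved with elt-3 and nhr-25 in replicate 3. X-linked genes with a mean of 11 to 14, the range that holds both, had a median deviation of -0.18 there and 67.6% of 617 were lower, whereas autosomal genes of that range had a median of 0.13 and 37.8% of 4313 were lower. Epidermal junction and attachment genes were lower in 16 of 16 cases with a median deviation of -0.68, cuticle and moulting genes in 15 of 19 with -0.75, seam and other epidermal regulators in 7 of 8 with -0.56, and muscle genes in 6 of 6 with -1.31. The other lists had medians nearer to 0 or above it. They were -0.20 for the gut (4 of 5 lower), -0.17 for the C lineage network (6 of 9), -0.09 for maternal fate regulators (5 of 8) and -0.07 for neurons (4 of 7). For other GATA factors the median was 0.12 (3 of 7 lower), for the germ line 0.13 (2 of 6) and for the LIN-26 relatives 0.37 (1 of 3). For all genes the median was 0.04, and 46.9% were lower. Some of the listed genes had signals under the serpentine receptor level, which give only a bound. Called below it were 5 of the 8 seam and other epidermal regulators. The same held for 8 of the 19 cuticle and moulting genes and 2 of the 6 muscle genes. What part chromosome, tissue or embryo stage had in the lower values of elt-3 and nhr-25 was not tested.

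The genes most like each epidermal fate gene were picked by the smallest root mean square difference of the log2 values over all 4 samples. They were sms-2 (0.14) and R148.5 (0.15) for elt-3 and cutl-9 (0.05) and cest-17 (0.07) for nhr-25. For lin-26 they were ifg-1 (0.03) and zipt-7.2 (0.04), for egl-18 tim-1 (0.06) and skr-9 (0.06), for elt-6 nono-1 (0.05) and hmbx-1 (0.06), and for the average of elt-1 C48B6.9 (0.05) and Y37E11AM.3 (0.07).

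**Figure D4:**
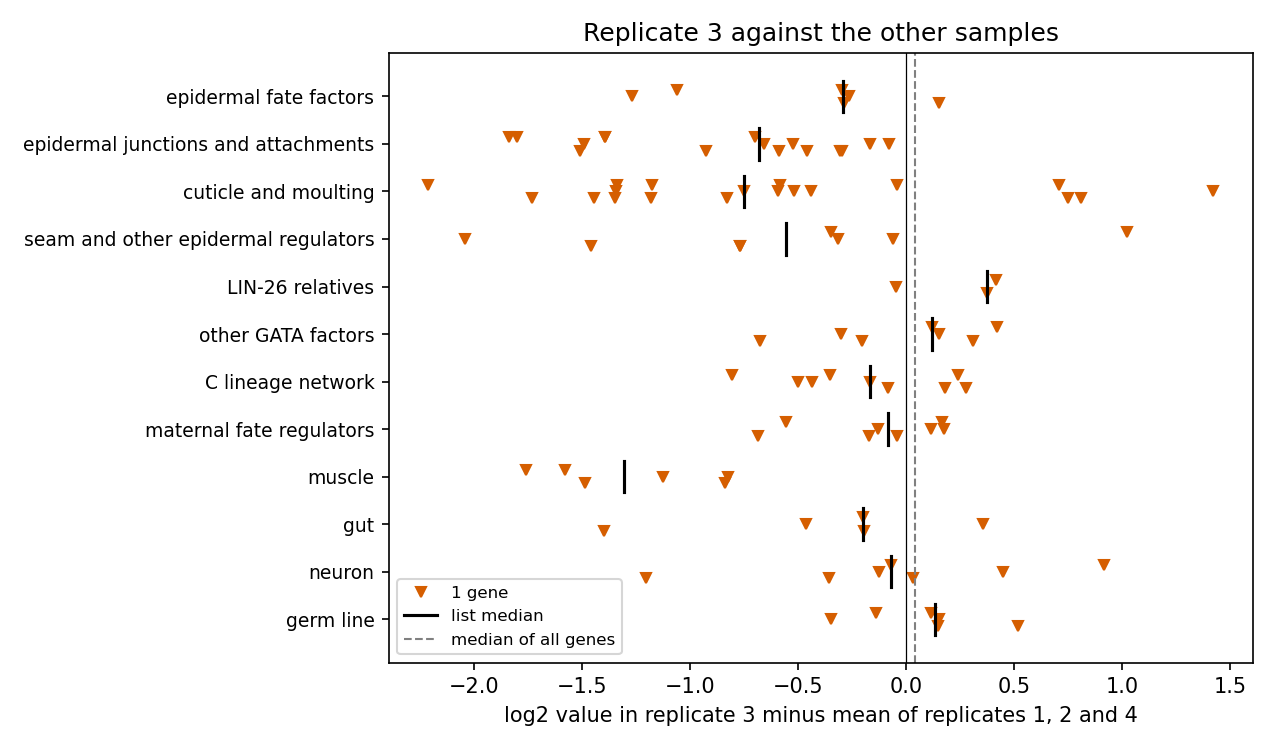
Log2 value in replicate 3 minus the mean of replicates 1, 2 and 4 (horizontal axis) for each gene of the lists on the vertical axis, with a black bar at the list median and a dashed line at the median of all genes, 0.04. All 16 junction and attachment genes and all 6 muscle genes lie left of 0, and the medians of these lists are -0.68 and -1.31, against 0.13 for the germ line. Genes called below the serpentine receptor level are included.

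Chromosomal neighbours of elt-3, nhr-25 and elt-1 had levels of all kinds. The gene before elt-3 is meg-1, a germline gene of P granule function, at 14.37 ± 0.14, and the one after it is the Argonaute gene alg-1, at 13.38 ± 0.39 and lowest in replicate 3 at 12.80. For nhr-25 they were vwa-8, at 12.94 ± 0.17, which differed from nhr-25 by less than the spread of the samples, and npr-10, a neuropeptide receptor gene, at 4.92 ± 0.39. The amino acid transporter gene aat-1, before elt-1, averaged 11.01 ± 0.81, and its deviation in replicate 3 was -1.59.

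Other genes of epidermal regulation were mostly lower than the 6 members. Of 8 seam and other epidermal regulators, 2 were above the serpentine receptor level, 5 below it and 1 was not called, with a median of 7.09; the 25% above compare with 42.1% of all genes. Those above were nhr-23, a nuclear receptor gene of moulting, at 13.27 ± 0.25, and ceh-16, the engrailed homolog of seam cells, at 11.73 ± 0.40 (limma, adjusted p = 3.92e-07 and 6.03e-06). The lowest were lin-22, a hairy-related gene, at 5.32 ± 0.57, and grh-1, the Grainyhead homolog, at 5.52 ± 0.31. Both lay below the level in every sample (adjusted p = 1.66e-05 and 1.65e-06). Of 7 other GATA factor genes, which act in endoderm and mesendoderm, 3 were above the level, 3 below it and 1 was not called, with a median of 8.45. The share above, 42.9%, was close to the 42.1% of all genes. The gut factor gene elt-7 averaged 12.25 ± 0.22 and the early endoderm gene end-1 12.18 ± 0.25, both close to elt-3, whereas elt-4 averaged 6.61 ± 0.41 and med-1 7.97 ± 0.14. Probes of med-1 may also detect its near-identical copy med-2.

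**Figure D5:**
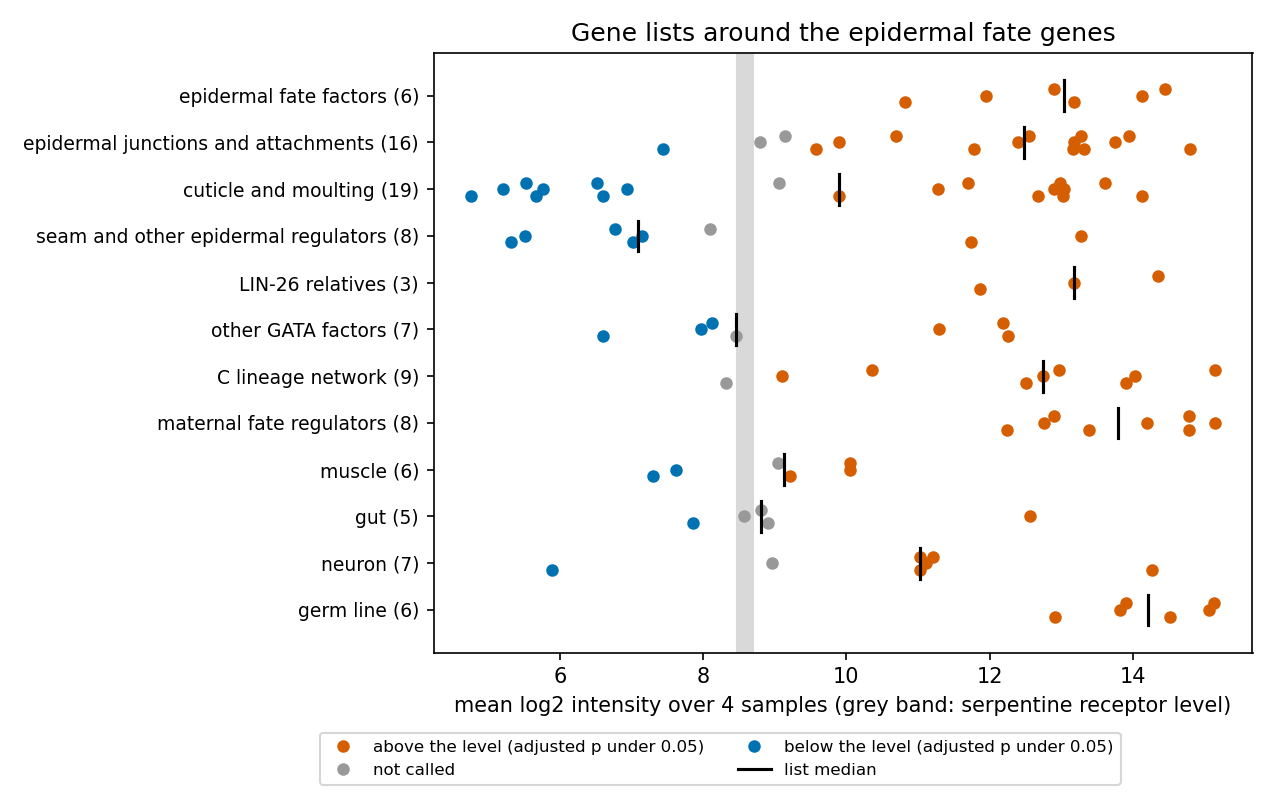
Mean log2 intensity over the 4 samples (horizontal axis) of each gene in the lists on the vertical axis, colored by the limma call against the serpentine receptor level (grey band), with a black bar at the list median and the number of measured genes in parentheses. All 6 epidermal fate genes are above the band, as are all 8 maternal fate regulators, 6 germ line genes and 3 LIN-26 relatives. Called above the level were 8 of 9 C lineage genes, 13 of 16 junction and attachment genes and 5 of 7 neuron genes. The shares were lower for cuticle and moulting (10 of 19), muscle (3 of 6), other GATA factors (3 of 7), seam and other epidermal regulators (2 of 8) and gut (1 of 5). For all genes the share was 42.1%.

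Most genes of the C lineage list and all maternal fate regulators were above the serpentine receptor level. The C lineage network around PAL-1, the caudal homolog that specifies C descendants, had 8 of 9 genes above the level and a median of 12.74. These 88.9% compare with 42.1% of all genes. The count was 7 without replicate 1, without replicate 2 or under the level that 1% of serpentine receptor genes exceed. Under the level that 5% of them exceed, it was 9. The network was led by the T-box genes tbx-9, at 15.15 ± 0.14, and tbx-8, at 14.03 ± 0.22. Its lowest genes were vab-7, the even-skipped homolog, at 8.32 ± 0.38, which was not called, and scrt-1 at 9.10 ± 0.18. All 8 maternal fate regulators were above the level, against 42.1% of all genes, with a median of 13.79. They ran from the Notch receptor gene glp-1 at 15.14 ± 0.11 and the RNA-binding protein gene mex-3 at 14.78 ± 0.10 to apx-1, a Notch ligand gene, at 12.76 ± 0.27 and the TCF gene pop-1 at 12.24 ± 0.37.

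Genes of the junction, attachment and cuticle lists lay on both sides of the level. Whole embryos were measured, so these counts do not place the RNA in the epidermis. Of 16 junction and attachment genes, 13 were above the level, 1 was below and 2 were not called, with a median of 12.47. These 81.25% above compare with 42.1% of all genes. The count was 12 to 14 with 1 replicate left out. It was 15 with the highest transcript, by the median over samples or under the level that 5% of serpentine receptor genes exceed. Under the stricter level that 1% of them exceed, it was 12. The highest genes of this list were the E-cadherin gene hmr-1, at 14.80 ± 0.26, and the spectrin gene sma-1, at 13.94 ± 0.37. The lowest were eff-1, which encodes the cell fusion protein, at 7.44 ± 0.17, and let-805, which encodes an attachment protein, at 8.79 ± 0.85. Of 19 cuticle and moulting genes, 10 were above, 8 below and 1 was not called, with a median of 9.90, and these 52.6% above were near the 42.1% of all genes. Here noah-2, which encodes a protein of the apical matrix, averaged 14.13 ± 0.73 and the moulting gene mlt-10 13.61 ± 0.32, while the collagen genes dpy-5 and dpy-4 were at 4.76 ± 0.38 and 5.21 ± 0.29.

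Lists named for other tissues were measured beside these lists, also in whole embryos, so a list name does not place the RNA in that tissue. All 6 germ line genes were above the level, against 42.1% of all genes. Their median was 14.21, from the RNA helicase gene cgh-1 at 15.13 ± 0.12 to the P granule gene pgl-3 at 12.91 ± 0.33. Of muscle genes 3 of 6 were above it (50%, near the 42.1% of all genes), a count that was 2 to 4 with 1 replicate left out and 1 under the stricter level that 1% of serpentine receptor genes exceed, with the myosin genes unc-54 at 10.06 ± 0.85 and myo-3 at 7.31 ± 1.25. For neurons it was 5 of 7 (71.4%, against 42.1% of all genes), with the synaptobrevin gene snb-1 at 14.27 ± 0.21 and the synaptic vesicle gene rab-3 at 5.90 ± 0.65. The neuron count was 6 without replicate 4, under the level that 5% of serpentine receptor genes exceed or by the median over samples. For the gut the count was 1 of the 5 measured of 6 listed (20%, against 42.1% of all genes). This was the fatty acid elongase gene elo-2 at 12.56 ± 0.20, while the intestinal filament gene ifb-2 was at 7.86 ± 0.25. The gut count was 2 without replicate 3 or with the highest transcript, and 4 under the level that 5% of serpentine receptor genes exceed or by the median over samples.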

How the data were processed

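RNA of 4 N2 early embryo samples was measured on NimbleGen arrays labelled with Cy3. By the methods and the submitters' processing notes, the authors applied quantile normalization and combined the probes of a transcript by RMA, and the intensity of each transcript was deposited untransformed. For the expression array, the sources used here name no RMA version, annotation or genome build. The paper gives DNase treatment for a part of the samples and the labels for all, so samples were not divided by it.

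Log2 was taken without a pseudocount, and 23180 transcripts were averaged into 20040 genes, 19380 of them with a RefSeq symbol (WBcel235). The median intensity of all transcripts was 313 to 351 per sample. As arrays give no depth, their number limits the precision. Distances from the serpentine receptor level were tested with limma 3.58.1 (R 4.3.3), a step also tested on simulated data. Other values were computed with Python 3.11.15, numpy 2.4.6 and pandas 2.3.3. Members and lists were chosen with earlier results of these data known. Genes named are the members, the 2 genes most like each, their chromosomal neighbours, and of lists over 4 genes the 2 highest and 2 lowest; of muscle, neuron, gut and germ line markers, 2 of these are given. No probe, promoter or protein sequence was used here. As alternatives, each replicate was left out, and results were recomputed with the median over samples, the highest transcript, the series table (0 of 92720 values differed), other serpentine receptor percentiles, a pseudocount of 50, centred arrays, a filter on low genes and 100 nearest genes. Results with the highest transcript for deviations and pairs, and pairs without replicate 3, were added after seeing the data.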

Additional observations from a re-analysis of the deposited data

Results flagged for a closer look

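Among 72 values checked in the 4 samples, 5 had 1 sample far from the others relative to their range, where chance flags about 1 in 20. The epidermal factor gene elt-3 was one of them, with replicate 3 at 10.99 and the others between 12.18 and 12.35, a gap of 0.873 of the range. Replicate 3 was also the low sample for the cuticle gene noah-2 (13.05 against 14.40 to 14.60, gap 0.870), the T-box gene tbx-8 (13.70 against 14.10 to 14.17, gap 0.846) and alg-1, the gene next to elt-3 (12.80 against 13.56 to 13.59, gap 0.965). The median of the maternal fate regulators was high in replicate 2, at 13.87 against 13.76 to 13.77, a gap of 0.911.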

How the results depend on the processing

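The count of 6 epidermal fate genes above the serpentine receptor level held under every alternative run, and each of the genes was above it in each sample used. Their largest adjusted p over the settings was 0.000394, for elt-3 (limma). The averages of lin-26, egl-18, elt-6, nhr-25 and elt-3 moved by less than their SD in every setting. For elt-1 the average moved to 14.74 with the highest transcript, and its deviation in replicate 3, corrected for genes of like level, turned to -0.41. With that transcript the differences of elt-3, egl-18, elt-6, lin-26 and nhr-25 minus elt-1 turned to -2.80, -0.62, -1.57, -0.30 and -1.70, since the low transcript a no longer entered. Leaving out 1 replicate gave 10.78 to 10.89 for elt-1, 11.81 to 12.26 for elt-3, 14.06 to 14.19 for egl-18, 13.11 to 13.24 for elt-6, 14.41 to 14.52 for lin-26 and 12.76 to 13.16 for nhr-25.

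Muscle genes above the level numbered 1 in place of 3 when 1% of serpentine receptor genes exceeded it. Gut genes numbered 1 to 2 with 1 replicate left out (2 without replicate 3), 2 with the highest transcript, 4 when 5% of those genes exceeded the level and 4 by the median over samples. The causes were not tested. Centring the arrays left every distance from the level as it was by construction. No paired analysis was possible because no other group exists whose samples could be paired with these; genes and transcripts were compared within samples. The 4 arrays and the absence of a background measurement limit all levels, and transcripts below the serpentine receptor level cannot be called absent.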
